A study of Mus musculus with 7 samples.

Results

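The solute carriers (SLC proteins) are the large superfamily of membrane proteins that move ions, sugars, amino acids, nucleotides, vitamins and metals across the plasma membrane and the membranes of organelles. Described here are 78 of 37620 genes measured in mature mouse oocytes. They are the genes whose symbol starts with Slc and a number and whose mean level over 7 oocytes was at least 1 FPKM (fragments per kilobase of gene, scaled to the size of the library). They were thus chosen by a measured value, the overall level, which is given as a description only. The rule names no difference between genotypes, but its mean covers both, so a gene high in 1 genotype could enter through it. Only in the KO oocytes did 12 members reach a mean of 1 FPKM, and 1 did so only in the WT oocytes. The glucose (Slc2a), monocarboxylate (Slc16a) and zinc (Slc30a and Slc39a) families, Slc6a6 and Slc7a11 were left out. The table names 377 Slc genes, of which 54 belong to the families and genes left out. Of the other 323, 84 were listed at 0 in every oocyte, 161 had a mean between 0 and 1 FPKM and 78 were members. Just inside the limit were Slc7a8, Slc12a9 and Slc48a1, with means of 1.06, 1.02 and 1.02 FPKM, and just outside it Slc10a7, Slc35d2 and Slc37a3, with 0.970, 0.969 and 0.939 FPKM. The label fits with 3 exceptions, which are named after a neighbouring or partner carrier and are no carriers themselves: Slc7a6os, Slc4a1ap (kanadaptin) and Slc9a3r2 (the scaffold protein NHERF2).

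Each library was made from 1 mature oocyte, held in meiosis II at metaphase (MII) until fertilization. All 7 oocytes carried floxed alleles of Hira, written Hiraf/f in the labels, and Hira encodes a chaperone of the histone variant H3.3. The 3 oocytes called WT (WT1, WT2 and WT4) had no Cre. The 4 called KO (KO1 to KO4) also carried Zp3-Cre, a transgene whose promoter is active in the growing oocyte and which is used to delete genes in oocytes alone. The design text speaks of 4 oocytes per genotype, and the 7 named were analysed here. The labels give no strain, age or animal, and each library is a single cell, so a genotype counts as 1 sample and no test of genotype is reported. Means are given with the SD between oocytes, and "higher" and "lower" describe these 7 libraries. Reads in genes numbered 15340782 to 25940519 per oocyte. Hira was at 0.317 ± 0.028 FPKM in WT (SD, n = 3) and 0.078 ± 0.036 in KO oocytes (SD, n = 4), without overlap. All 12 oocyte markers looked up had a mean of at least 1 FPKM. Their summed level was 6371 to 7184 FPKM in WT and 4468 to 4829 in KO oocytes. Gdf9, Bmp15 and Oosp1 were lower in KO oocytes without overlap (Oosp1 at 2496 ± 274 and 1592 ± 264 FPKM), and the other 9 overlapped. Of these, Zp2 had the largest drop (120 ± 45.5 and 60.3 ± 24.3 FPKM), and Zp1, Zp3, Zar1 and Padi6 also had lower KO means. Nlrp5 was at 323 FPKM in both genotypes. Higher KO means were those of Mos (208 ± 42.5 and 229 ± 39.6 FPKM), Ooep and Figla. Of 18 cumulus and granulosa cell markers, 3 (Cyp19a1, Nr5a2 and Fshr) had a mean of at least 1 FPKM and 8, among them Amh, Amhr2 and Foxl2, were listed at 0 throughout. The summed level of the 18 was 23.5 to 25.7 FPKM in WT and 32.9 to 36.7 in KO oocytes. Nr5a2 was higher without overlap (2.53 ± 0.994 and 7.25 ± 0.904 FPKM). Fshr was listed at 0 in all WT oocytes and KO1 and at 2.99 to 4.51 FPKM in KO2 to KO4. Cyp19a1, most of the sum, overlapped (22 ± 1.78 and 24.6 ± 3.77 FPKM). The part of these marker shifts in the differences between genotypes was not tested. The 6 blood cell markers summed to at most 1.99 FPKM in any oocyte.

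An oocyte lives on transporters of several kinds. Those of its own plasma membrane set its pH, its volume and its chloride, and take up amino acids, choline and vitamins. Other substrates reach it from the cumulus cells through gap junctions. Inside the cell, carriers of the Slc25 family exchange ADP, ATP, phosphate, amino acids and cofactors across the inner mitochondrial membrane or into peroxisomes, and carriers of the Slc35 family feed nucleotide sugars to the Golgi and endoplasmic reticulum.

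Promoters were looked at because some of the most abundant members were lower together in the KO oocytes (Slc25a17, Slc25a31 and Slc25a5) and because Slc31a2 and Slc31a1, copper transporter genes on the same chromosome, had differences of opposite sign. Both sets were chosen after their values were seen. Windows of 300 bases, from 250 before to 50 after an annotated start, were taken from RefSeq (build GRCm38.p6) and matched to 60 of the 78 symbols, with 75 starts. Among those not matched were Slc12a2, Slc20a2, Slc25a26, Slc25a32, Slc25a44, Slc25a51, Slc26a2, Slc35a4, Slc43a3, Slc48a1, Slc5a12, Slc6a15, Slc6a7, Slc7a2 and Slc9a4. Capitals mark matches on either strand to one of 6 motifs. The TATA box of core promoters was searched as TATAAA. The box bound by the factor NF-Y was searched as CCAAT. The GC box bound by the Sp family was searched as GGGCGG. The E-box bound by USF and TFEB was searched as CACGTG. The core of E2F sites was searched as TCCCGC. The amino acid response element bound by ATF4 was searched as TGATGNAAN. A GC box and an E2F core can overlap, as they do in Slc31a1.
Slc25a17, chr15:81360716-81361015, minus strand: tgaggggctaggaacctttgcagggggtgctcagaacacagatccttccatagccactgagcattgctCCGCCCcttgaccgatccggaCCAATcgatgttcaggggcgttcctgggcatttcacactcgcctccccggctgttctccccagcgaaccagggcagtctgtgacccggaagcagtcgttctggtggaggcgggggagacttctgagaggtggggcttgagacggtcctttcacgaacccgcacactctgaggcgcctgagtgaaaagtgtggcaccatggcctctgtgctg
Slc25a31, chr3:40708621-40708920, plus strand: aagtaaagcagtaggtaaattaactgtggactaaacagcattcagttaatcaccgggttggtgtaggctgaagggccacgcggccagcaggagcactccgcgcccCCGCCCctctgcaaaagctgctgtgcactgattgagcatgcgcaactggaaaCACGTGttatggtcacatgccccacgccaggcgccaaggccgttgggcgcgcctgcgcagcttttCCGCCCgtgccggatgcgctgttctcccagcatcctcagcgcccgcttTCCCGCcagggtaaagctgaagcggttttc
Slc25a5, chrX:36795347-36795646, plus strand: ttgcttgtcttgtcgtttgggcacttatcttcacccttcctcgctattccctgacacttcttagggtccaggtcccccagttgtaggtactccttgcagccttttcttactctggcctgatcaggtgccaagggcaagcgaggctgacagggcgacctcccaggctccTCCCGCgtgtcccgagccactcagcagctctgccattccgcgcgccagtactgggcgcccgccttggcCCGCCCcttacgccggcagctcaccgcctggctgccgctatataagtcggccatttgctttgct
Slc31a2, chr4:62286179-62286478, plus strand: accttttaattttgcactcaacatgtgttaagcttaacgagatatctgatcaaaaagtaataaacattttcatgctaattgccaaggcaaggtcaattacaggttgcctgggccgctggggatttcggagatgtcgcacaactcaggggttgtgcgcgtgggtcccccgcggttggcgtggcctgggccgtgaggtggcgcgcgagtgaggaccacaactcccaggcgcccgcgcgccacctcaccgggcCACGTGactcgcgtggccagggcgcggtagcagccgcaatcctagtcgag
Slc31a1, chr4:62360451-62360750, plus strand: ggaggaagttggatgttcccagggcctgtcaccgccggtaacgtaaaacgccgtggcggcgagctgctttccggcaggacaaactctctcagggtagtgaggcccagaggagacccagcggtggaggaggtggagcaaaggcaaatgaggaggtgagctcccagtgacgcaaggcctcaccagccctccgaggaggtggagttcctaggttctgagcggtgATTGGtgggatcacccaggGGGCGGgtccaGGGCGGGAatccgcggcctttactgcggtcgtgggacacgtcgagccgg

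The 3 Slc25 promoters shared no arrangement of these motifs. The window of Slc25a17 held a GC box and an NF-Y box. That of Slc25a31, the germ-cell form of the adenine nucleotide translocator, held 2 GC boxes, an E-box and an E2F core. That of Slc25a5, the widely expressed form, held an E2F core and a GC box. The window of Slc31a2 had its only match, an E-box, at the start itself. Slc31a1 begins 74272 bases further along the same strand, and its window held an NF-Y box, 2 GC boxes and an E2F core. A GC box was found in 69.3% of the members' 75 windows and in 35.7% of all 32851 windows in the table. Those windows also cover non-coding genes and were not limited by level in oocytes, as the members were. Shares over expressed genes alone were not taken. The other motifs were found in 12% of members' windows against 13.6% (TATA box), 30.7% against 37.4% (NF-Y box), 18.7% against 7.15% (E-box), 32% against 19.98% (E2F core) and 2.67% against 3.95% (amino acid response element). The observed-to-expected ratio of CpG was 0.652 at the median of the members' windows and 0.384 over all windows. Among members it was 0.753 for the 8 windows of genes with every KO oocyte above every WT oocyte, 0.598 for the 8 windows of those with every KO oocyte below, and 0.649 for the other 59. The median GC content was 62% in the members' windows and 52.7% in all windows, so base composition differs along with the motifs.

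The members spanned a wide range of levels, and a pair of genes held much of the transcript. Slc25a17, the peroxisomal carrier of coenzyme A, FAD and NAD, had the highest mean, followed by Slc45a3 (prostein, a proposed sugar transporter). Together they made up 32.5% of the members' summed mean FPKM. Next came Slc25a31, Slc25a15 (the mitochondrial ornithine carrier), Slc44a1 (a choline transporter), Slc25a5, Slc3a2 (the heavy chain that takes amino acid transporters to the cell surface), Slc7a6os, Slc23a2 (which takes up ascorbate), Slc6a15 (a neutral amino acid transporter), Slc31a2 and Slc35b3 (which carries the sulfate donor PAPS into the Golgi). Mean levels reached 10 FPKM in 23 members and lay under 3 FPKM in 35. The median member was at 3.95 FPKM, against 5.6 for all 7715 genes with a mean of at least 1.

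**Figure D1:**
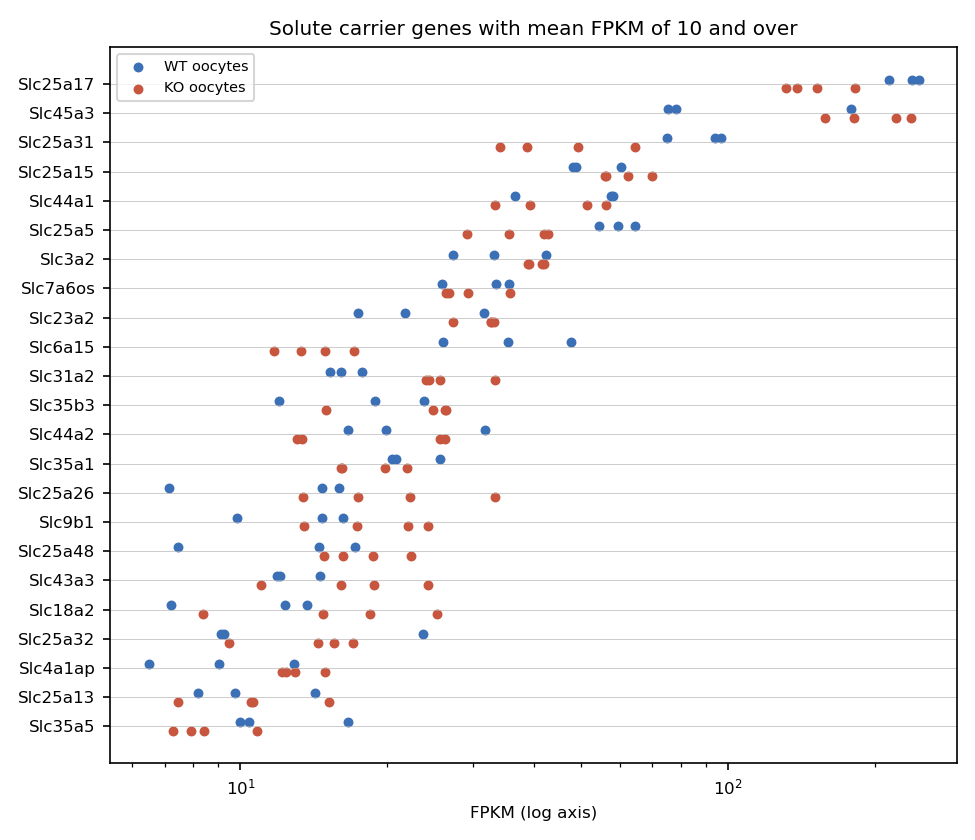
FPKM in each oocyte (log axis) of the 23 members with a mean of at least 10 FPKM, in order of mean level, with WT oocytes in blue and KO oocytes in red. For Slc25a17, Slc25a31, Slc25a5 and Slc6a15 the red points lie below all blue points, and for Slc31a2 above them; in the other 18 rows the genotypes overlap.

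Several carriers that textbooks assign to oocytes and early embryos were low. Of 28 such genes looked up, 13 were members, 15 had a mean under 1 FPKM and 3 of these (Slc38a2, Slc38a3 and Slc40a1) were listed at 0 in all oocytes. Slc6a9, the glycine transporter that serves volume control in the egg, had a mean of 0.292 FPKM with 18 to 103 reads per oocyte. Slc4a2, a chloride-bicarbonate exchanger, had a mean of 0.135 FPKM, and Slc19a1, the reduced folate carrier, 0.337 FPKM. Slc1a1, a glutamate and aspartate transporter, fell short of membership with a mean of 0.635 FPKM. It had 0, 2 and 9 reads in WT1, WT2 and WT4, and 152, 445, 53 and 211 reads in KO1 to KO4, so every KO oocyte held more than every WT oocyte.

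Over all members, the KO oocytes differed from WT about as often as other genes did. A gene is called higher or lower here when the means of log2(FPKM + 1) differ by more than 1.5-fold. Differences are given on that log2 scale, KO minus WT, which understates the change of low genes, and the fold values of single genes are ratios of mean FPKM. Higher in KO were 18 of 78 members (23.1%), where 22.7% of the 7715 genes with a mean of at least 1 were. Lower were 7 (8.97%), where 8.23% of all genes were. The lowest KO oocyte was above the highest WT oocyte for 10 members (12.8%, against 18.8% of all genes) and the highest KO oocyte below the lowest WT oocyte for 9 (11.5%, against 9.2%). The shares called higher or lower are near those of all genes and are no result about the solute carriers. The median difference was 0.37 over members and 0.18 over all genes, and the difference was positive for 57 members and for 4890 of the 7715 genes. With median-ratio scaling the medians were 0.17 for members and -0.01 for all genes, and the split became 13 members higher and 11 lower (14.8% and 14.5% of all genes). With quantile normalization it was 12 higher and 14 lower (14.5% and 12.9% of all genes). Without WT1, 29 members were higher (28.5% of all genes) and 26 had no overlap upward (32.5% of all genes). Leaving out KO1 or KO3 left 18 members in each case with every KO oocyte above WT, where 23.1% and 23.8% of all genes were. Without WT2 the members' median was 0.22.

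How the members entered bears on these counts. A mean of 1 FPKM was reached only through the KO oocytes by 12 members. They are Slc9a3r2, Slc6a7, Slc23a3, Slc26a2, Slc25a36, Slc41a1, Slc7a1, Slc25a51, Slc20a2, Slc7a8, Slc12a9 and Slc48a1. Slc4a10, called lower, reached it only through the WT oocytes. Of the 12, Slc9a3r2, Slc6a7, Slc23a3, Slc26a2, Slc7a8 and Slc48a1 are among the members called higher. Slc9a3r2, Slc6a7, Slc26a2 and Slc7a8 also count among those with every KO oocyte above every WT oocyte. These calls are tied to the rule of entry. Members with a mean under 3 FPKM had a median difference of 0.40 (n = 35), those at 3 to 10 FPKM 0.37 (n = 20) and those at 10 and over 0.22 (n = 23). The medians of all genes in these ranges were 0.25, 0.23 and 0.07. Levels reached 1 FPKM for 67, 59 and 62 members in WT1, WT2 and WT4 and for 72, 74, 72 and 75 in KO1 to KO4. The members took 0.473% ± 0.0350 of reads in WT and 0.532% ± 0.0240 in KO oocytes, and their summed levels overlapped (1059 ± 87.8 and 1075 ± 42.9 FPKM). Without Slc45a3 the sums were 948 ± 35.4 in WT and 876 ± 37.6 FPKM in KO oocytes, where the highest KO oocyte (908.6) was just below the lowest WT oocyte (908.8). WT2 had the lowest WT value for 40 of 78 members, or 51.3%, against 41.2% of all genes.

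**Figure D2:**
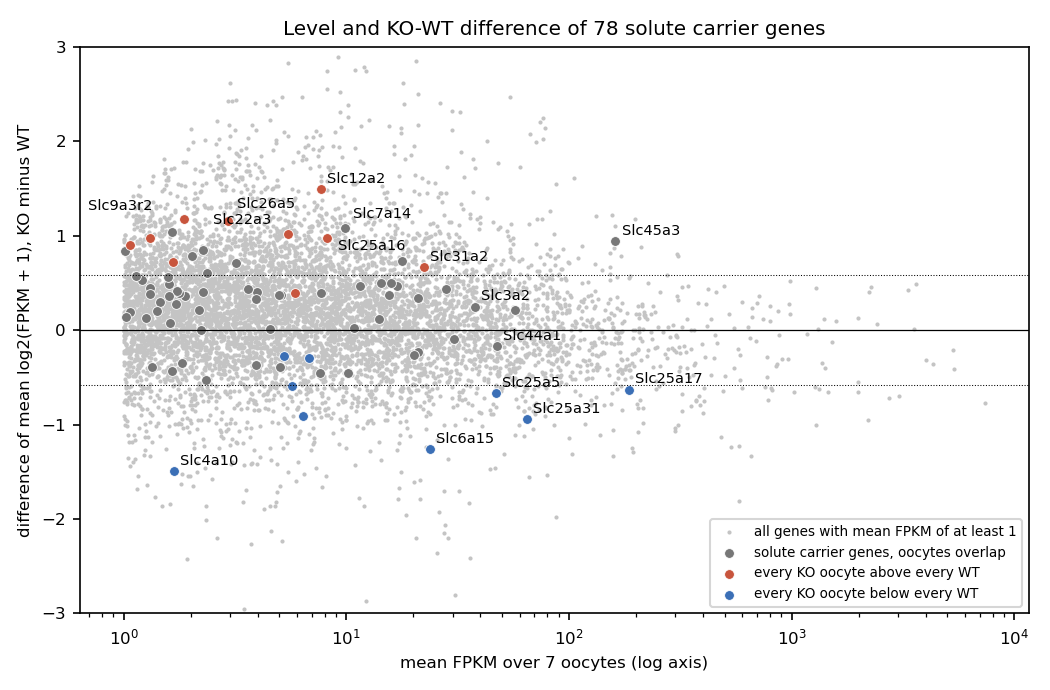
KO minus WT difference in mean log2(FPKM + 1) against the mean FPKM over 7 oocytes (log axis) for the 78 members (large points) and all 7715 genes with a mean of at least 1 (small grey points, of which 15 lie beyond the axis limits of 3). Red and blue mark members whose oocytes do not overlap, dotted lines mark 1.5-fold, and the members lie within the cloud of all genes, from Slc4a10 at -1.49 to Slc12a2 at 1.5.

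The largest positive difference of any member was that of Slc12a2. It encodes NKCC1, which brings chloride into cells with sodium and potassium. Slc12a2 was at 2.21, 3.78 and 3.72 FPKM in WT1, WT2 and WT4 and at 8.36, 12.9, 8.81 and 13.9 FPKM in KO1 to KO4. The lowest KO oocyte was above the highest WT oocyte, and the means were 3.24 ± 0.888 and 11.0 ± 2.83 FPKM, 3.40-fold higher in KO (log2 difference 1.5, and 1.28 with median-ratio scaling).

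In the same class of sodium, potassium, chloride and calcium carriers, Slc24a3, a potassium-dependent sodium-calcium exchanger, was called higher (1.22 ± 0.875 against 2.64 ± 0.33 FPKM) with overlap, and its difference of 0.78 was 0.49, inside 1.5-fold, without WT2. Slc12a7 (KCC4) and Slc12a9 were within 1.5-fold. Among genes outside the family that govern chloride and volume, the kinase gene Stk39, whose product activates NKCC1, was at 0.72 ± 0.19 FPKM in WT and 1.91 ± 0.69 in KO oocytes, without overlap. It reached a mean of 1 FPKM only through the KO oocytes, and its difference of 0.73 was 0.50, inside 1.5-fold, with quantile normalization. Lrrc8b, of the volume-regulated anion channel, was at 3.57 ± 0.63 and 11.0 ± 2.57 FPKM, also without overlap. Of 7 genes in the volume list with a mean of at least 1 FPKM, 3 were called higher and 0 lower, where 22.7% and 8.23% of all genes were. The third, the kinase gene Wnk1, stood at 0.61, which median-ratio scaling and quantile normalization brought to 0.41 and 0.38, inside 1.5-fold. Within 1.5-fold were Lrrc8a (27.1 ± 11.7 and 23.9 ± 3.35 FPKM), Lrrc8d, Lrrc8e and Wnk2, with differences of -0.10, 0.03, 0.51 and 0.14. These genes were picked for a list on volume control, and their part in the level of Slc12a2 was not tested. The 61 genes of all other membrane transport lists, these 7 included, held 16 called higher and 4 called lower, with a median difference of 0.14, near what all genes gave (22.7% higher and 8.23% lower, median 0.18).

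Of the 4 most abundant mitochondrial and peroxisomal carriers, Slc25a17, Slc25a31 and Slc25a5 were lower in KO oocytes and Slc25a15 was not. Slc25a17 was at 214, 238 and 246 FPKM in WT and 131, 153, 182 and 139 FPKM in KO oocytes. All KO values lay below all WT values, and the means were 233 ± 16.7 and 151 ± 22.3 FPKM, 1.54-fold lower. The log2 difference of -0.63 was -0.49 with quantile normalization and -0.56 without KO1, inside 1.5-fold. Slc25a31 was at 94.1, 96.7 and 74.8 FPKM in WT and 38.7, 49.3, 64.6 and 34.0 FPKM in KO oocytes, 1.90-fold lower (88.5 ± 12 against 46.7 ± 13.6). Slc25a5 was at 59.5, 54.3 and 64.3 FPKM in WT and 35.5, 42.7, 41.9 and 29.2 FPKM in KO oocytes, 1.59-fold lower (59.4 ± 5.01 against 37.3 ± 6.33). Neither gene overlapped between genotypes, and the difference of Slc25a5 was -0.67, or -0.56 without KO4. Other genes hold 33.8% of the sequence of Slc25a5, which makes its reads uncertain.

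The translocators exchange ADP for ATP, and their summed level was lower in KO oocytes. Slc25a4, the form of heart and muscle, was at 4.56 ± 0.414 FPKM in WT and 3.45 ± 1.24 in KO oocytes, with overlap. The 3 translocator genes summed to 144 to 158 FPKM in WT and 65.8 to 111 FPKM in KO oocytes, without overlap. Slc25a31 made up 57.9% ± 5.35 of that sum in WT and 52.9% ± 3.58 in KO oocytes, which overlapped. Slc25a3, the mitochondrial phosphate carrier, was low in both (2.13 ± 0.672 and 1.30 ± 0.266 FPKM).

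The other 16 carriers are those of the class not called lower, so the count of 0 lower among them was set by this split. Of these 16, 3 were called higher and 13 lay within 1.5-fold, with a median of 0.21 (0.02 with median-ratio scaling). They summed to 118 to 156 FPKM in WT and 160.5 to 181 FPKM in KO oocytes, higher without overlap. That sum leaves out the lower genes by choice. In the whole class 3 were called higher and 3 lower, where 22.7% and 8.23% of all genes were. With median-ratio scaling 1 was higher and 5 lower (14.8% and 14.5% of all genes). With quantile normalization 1 was higher and 6 lower (14.5% and 12.9%). Slc25a17, Slc25a31 and Slc25a5 summed to 368 to 389 FPKM in WT and 202 to 288 FPKM in KO oocytes. The 19 carriers of the class together had a median of 0.12 (-0.11 with median-ratio scaling) and summed to 507 to 534 and 366 to 450 FPKM, so that the sum of the class follows its 3 lower members. Slc25a16 was at 8.53, 4.66 and 2.52 FPKM in WT and 14.1, 8.89, 9.92 and 9.05 FPKM in KO oocytes, 2.0-fold higher, and KO2 was just above WT1. Slc25a26, which brings S-adenosylmethionine into mitochondria, was called higher with overlap (12.6 ± 4.78 against 21.6 ± 8.61 FPKM). So was Slc25a38, the glycine carrier of heme synthesis (2.25 ± 1.60 against 3.91 ± 0.326 FPKM). Their differences of 0.73 and 0.71 were 0.51 and 0.54 with median-ratio scaling, and 0.40 and 0.41 without WT2, all inside 1.5-fold. Without KO3, the difference of Slc25a26 was 0.51. Slc25a15 was at 52.4 ± 6.91 and 61.1 ± 6.46 FPKM and overlapped, with a difference of 0.22 that turned to -0.02 with median-ratio scaling. Slc25a32, which carries folate, had like means (14 ± 8.35 and 14.1 ± 3.26 FPKM), with WT1 at 23.7 FPKM. WT2 and WT4 were at 9.13 and 9.25 FPKM, below every KO oocyte (9.49 to 17.0 FPKM), and the difference of 0.12 was 0.54 without WT1. Slc25a39, which carries glutathione, overlapped (1.5 ± 0.902 and 1.88 ± 0.294 FPKM). Slc25a51, the NAD carrier, was at 0.678 ± 0.384 and 1.49 ± 0.516 FPKM, again with overlap. Slc25a13, which exports aspartate, was at 10.7 ± 3.12 and 10.9 ± 3.19 FPKM.

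**Figure D3:**
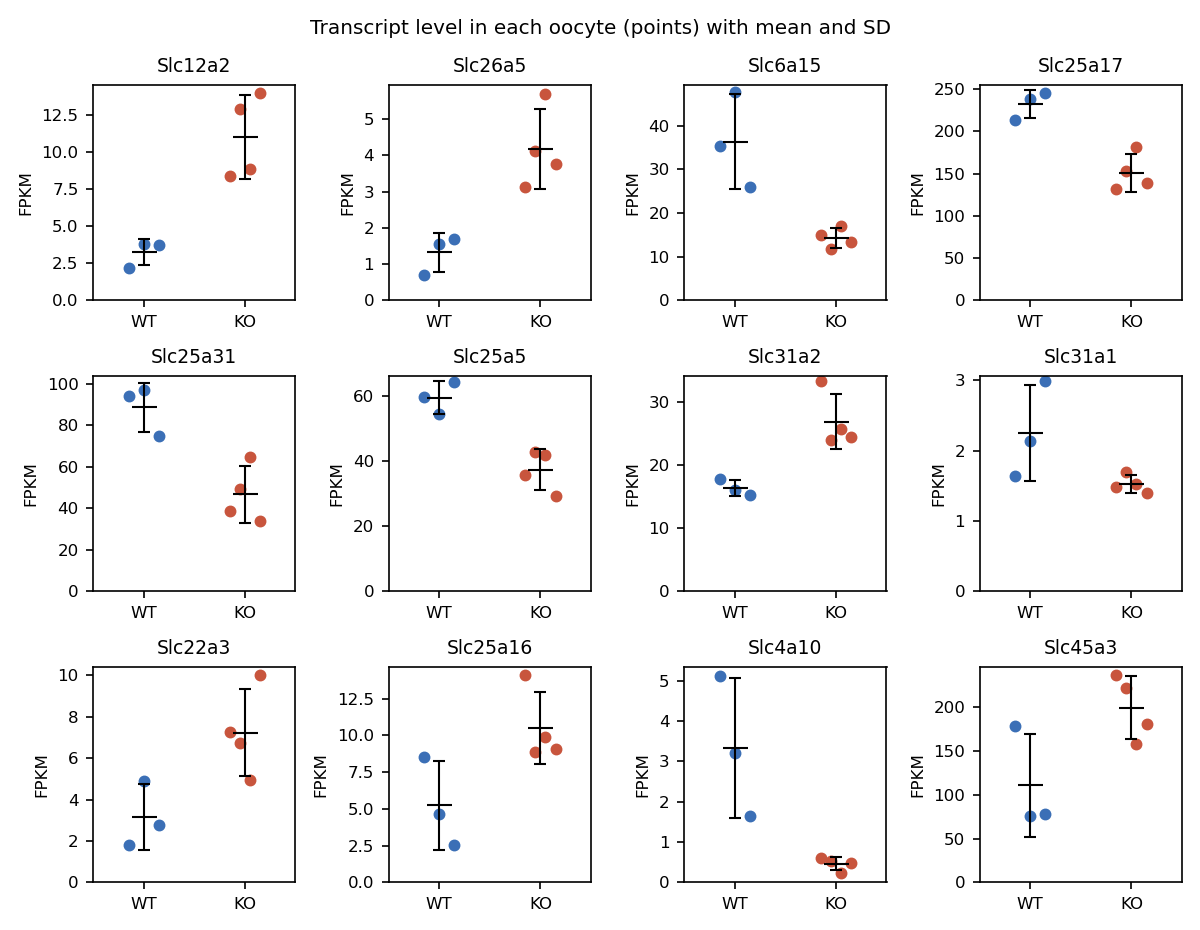
FPKM of 12 members in each WT (blue) and KO (red) oocyte, with the mean and SD in black and each axis from 0. The genotypes do not overlap for any of them except Slc31a1 and Slc45a3, and for both of these WT1 lies among the KO oocytes.

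Amino acid and peptide transporters included Slc6a15, the member with a log2 difference of -1.26, the most negative after Slc4a10. Slc6a15 was at 35.4, 47.6 and 26.0 FPKM in WT and 14.9, 11.7, 17.1 and 13.3 FPKM in KO oocytes. It was 2.55-fold lower in KO (36.4 ± 10.8 against 14.3 ± 2.31), without overlap. Slc15a5, placed among the peptide transporters, was 1.63-fold lower (7.30 ± 1.47 against 4.49 ± 0.769 FPKM), also without overlap. Its difference of -0.59 was -0.49 without WT1, -0.55 without WT2 and -0.49 without KO4, inside 1.5-fold. Slc3a2 was abundant in both genotypes, at 34.2 ± 7.58 and 40.3 ± 1.62 FPKM with overlap.

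The genes of the class given next had lower mean levels than Slc3a2. Of its light chain genes, Slc7a5 and Slc7a6 were not members. Slc7a5 overlapped (0.417 ± 0.337 FPKM in WT and 0.462 ± 0.219 in KO oocytes), and Slc7a6 had a mean of 0.0099 FPKM. Slc7a8 (LAT2), a light chain that pairs with the Slc3a2 product, was at 0.438, 0.217 and 0.477 FPKM in WT and 1.98, 1.28, 1.48 and 1.57 FPKM in KO oocytes. It was 4.18-fold higher in KO without overlap, and it is among the members that reached 1 FPKM only through the KO oocytes. With a pseudocount of 5, its log2 difference of 0.90 was 0.29, inside 1.5-fold. Slc6a7, a proline transporter known from brain, was 2.23-fold higher (0.984 ± 0.578 against 2.19 ± 0.387 FPKM), without overlap. It too reached 1 FPKM only through the KO oocytes. Its log2 difference of 0.72 was 0.58 with median-ratio scaling and 0.52 without WT2, inside 1.5-fold. Slc7a14, a lysosomal protein of the cationic amino acid family, had the largest difference of the class upward, 1.08, but KO3 (4.36 FPKM) was below WT2 (8.67 FPKM). Slc6a20a, a proline and betaine transporter gene, was at 4.34 ± 2.74 and 5.46 ± 1.00 FPKM and overlapped, with 26.7% of its sequence shared, mostly with Slc6a20b. The importers of cationic amino acids, Slc7a1 (0.83 ± 0.84 and 1.5 ± 0.23 FPKM) and Slc7a2 (3.42 ± 1.83 and 4.29 ± 0.682 FPKM), overlapped, as did the peptide transporter gene Slc15a2 (1.70 ± 0.934 and 1.07 ± 0.622 FPKM). Of 11 members in the class, 3 were called higher, 2 lower and 6 lay within 1.5-fold, where 22.7% of all genes were higher and 8.23% lower. By family number it holds Slc43a3, which is known to carry purine nucleobases.

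Among the bicarbonate, proton and anion exchangers, Slc4a10 was far lower in KO oocytes and a pair of Slc26 genes was higher. Slc4a10, a sodium-driven bicarbonate transporter, was at 5.11, 3.22 and 1.65 FPKM in WT and 0.602, 0.532, 0.231 and 0.470 FPKM in KO oocytes. The means were 3.33 ± 1.73 and 0.459 ± 0.161 FPKM, 7.26-fold lower in KO, and no KO oocyte came near the lowest WT oocyte. Slc4a10 reached the limit of 1 FPKM for membership only through the WT oocytes. Slc26a5 (prestin, the motor protein of outer hair cells) was at 0.709, 1.56 and 1.71 FPKM in WT and 3.13, 4.12, 5.71 and 3.77 FPKM in KO oocytes, 3.15-fold higher. Slc26a2, a sulfate transporter, was 3.75-fold higher (0.513 ± 0.429 against 1.92 ± 0.549 FPKM), without overlap, and passed that limit only through the KO oocytes. The log2 differences of 1.16 (Slc26a5) and 0.97 (Slc26a2) shrank to 0.53 and 0.33, inside 1.5-fold, with a pseudocount of 5.

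The other genes of this class lay within 1.5-fold on the log2(FPKM + 1) scale. Slc4a8, another sodium-driven bicarbonate exchanger, was 1.25-fold lower (5.94 ± 0.181 against 4.77 ± 0.713 FPKM) without overlap, inside 1.5-fold. Slc4a7 (6.21 ± 1.09 and 8.84 ± 3.63 FPKM), Slc9b1 (13.6 ± 3.33 and 19.3 ± 4.80 FPKM), a sodium-proton exchanger known from sperm, and Slc26a6 (4.12 ± 2.06 and 5.85 ± 2.91 FPKM) overlapped. Slc9a4, a sodium-proton exchanger gene, overlapped too (1.06 ± 0.548 and 1.98 ± 0.347 FPKM), though its mean FPKM was 1.87-fold higher. Of 11 members, 2 were called higher and 1 lower, where 22.7% and 8.23% of all genes were. The summed level of the 11 was 40.2 to 46.4 FPKM in WT and 52.1 to 63.3 in KO oocytes. The scaffold gene Slc9a3r2, whose product binds exchangers of the Slc9 family, was 4.10-fold higher in KO (0.672 ± 0.508 against 2.76 ± 0.987 FPKM), without overlap. Only through the KO oocytes did Slc9a3r2 reach a mean of 1 FPKM. Its log2 difference of 1.18 was 0.45, inside 1.5-fold, with a pseudocount of 5.

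The copper transporter genes, whose starts lie 74272 bases apart on chromosome 4, had differences of opposite sign (0.67 and -0.34). Slc31a2 encodes CTR2, which acts on copper inside the cell, and Slc31a1 encodes CTR1, the copper importer of the plasma membrane. Slc31a2 was at 17.7, 16.1 and 15.2 FPKM in WT and 33.3, 24.0, 25.7 and 24.4 FPKM in KO oocytes, 1.64-fold higher and without overlap. Its log2 difference of 0.67 was 0.44 with median-ratio scaling, 0.53 with quantile normalization and 0.57 without KO1, inside 1.5-fold. Slc31a1 was at 1.64, 2.13 and 2.99 FPKM in WT and 1.49, 1.69, 1.53 and 1.40 FPKM in KO oocytes, which overlapped. The ratio of Slc31a2 to Slc31a1 was 5.10 to 10.8 in WT and 14.2 to 22.4 in KO oocytes, a comparison free of scaling between libraries. The ratios given were chosen after their values were seen.

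**Figure D4:**
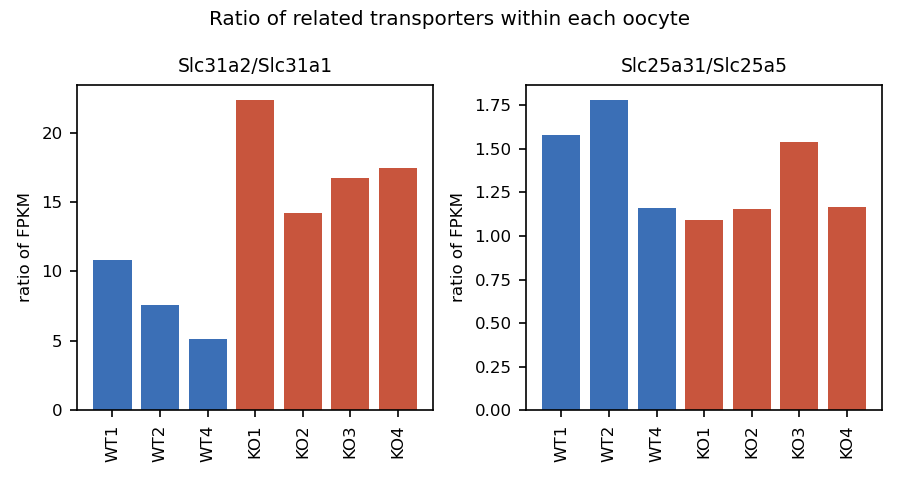
Ratio of FPKM between related members in each oocyte, with WT in blue and KO in red. The ratio of Slc31a2 to Slc31a1 is higher in all KO (14.2 to 22.4) than in all WT oocytes (5.10 to 10.8), and the ratio of Slc25a31 to Slc25a5 overlaps.

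Other metal carriers were low. The magnesium transporter gene Slc41a2 was 1.40-fold higher without overlap (4.81 ± 0.468 against 6.72 ± 1.43 FPKM), inside 1.5-fold. Its relative Slc41a1 overlapped (0.958 ± 0.182 and 1.57 ± 0.399 FPKM). Slc48a1, a heme transporter of lysosomes, was called higher at 0.402 ± 0.514 and 1.48 ± 0.640 FPKM, and it entered only through the KO oocytes. Its log2 difference of 0.84 was 0.26, inside 1.5-fold, with a pseudocount of 5. Its 71 WT reads (95% Poisson interval 55.5 to 89.6) lay unevenly over the oocytes, and WT1 (0.985 FPKM) was above KO4 (0.671 FPKM).

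Of the 4 organic ion and amine transporters, 2 were called higher, Slc22a3 and Slc22a5, where 22.7% of all genes were. Slc22a3 (OCT3), which carries organic cations and monoamines, was at 1.81, 4.91 and 2.76 FPKM in WT and 7.25, 6.73, 4.92 and 10.01 FPKM in KO oocytes. It was 2.29-fold higher in KO (3.16 ± 1.59 against 7.23 ± 2.10), and the genotypes were apart only by the small step from WT2 to KO3. Slc22a5 (OCTN2), the carnitine transporter, was called higher with overlap (1.57 ± 0.795 against 2.98 ± 1.58 FPKM). Its difference of 0.60 was 0.38 without WT4, 0.36 without KO4 and 0.45 with median-ratio scaling, all inside 1.5-fold, and other genes, Slc22a21 first, hold 26.3% of its sequence. Slc18a2 (VMAT2), which loads monoamines into vesicles, was at 11.1 ± 3.41 and 16.7 ± 7.06 FPKM and overlapped.

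Carriers of sugars, vitamins and lipids included the abundant Slc45a3. It was at 179, 75.4 and 78.3 FPKM in WT and 237, 221, 158 and 181 FPKM in KO oocytes, 1.80-fold higher on average, and WT1 lay above KO3. Slc23a2 was at 23.6 ± 7.30 and 31.4 ± 2.76 FPKM with overlap. Its relative Slc23a3 was called higher (0.566 ± 0.239 against 2.46 ± 1.38 FPKM), but KO1 (0.613 FPKM) was below WT1 (0.620 FPKM) and WT2 (0.773 FPKM). Membership of Slc23a3 came only through the KO oocytes, and its difference of 1.04 was 0.40, inside 1.5-fold, with a pseudocount of 5. The choline transporter genes Slc44a1 (50.7 ± 12.3 and 45.0 ± 10.6 FPKM) and Slc44a2 (22.8 ± 7.99 and 19.6 ± 7.36 FPKM) overlapped. Slc44a3 was called higher with overlap (1.37 ± 1.14 against 2.93 ± 0.623 FPKM), and its difference of 0.85 was 0.42, inside 1.5-fold, without WT2, where it had 0.195 FPKM. Slc33a1, which carries acetyl-CoA into the endoplasmic reticulum, was at 1.15 ± 0.698 and 1.92 ± 0.499 FPKM with overlap.

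Nucleotide sugar carriers showed no member past 1.5-fold. All 9 were within it, between -0.53 (Slc35a4) and 0.40 (Slc35b4), where 5331 of all 7715 genes were. With median-ratio scaling Slc35a4 and Slc35a5 lay past it, at -0.70 and -0.67. Slc35b1, an ATP and ADP carrier of the endoplasmic reticulum, was the only 1 of the 9 without overlap, at 7.71 ± 0.992 FPKM in WT and 6.09 ± 0.287 in KO oocytes, 1.27-fold lower. Slc35b3 (18.2 ± 5.91 and 23.1 ± 5.46 FPKM) and Slc35a1 (22.3 ± 2.95 and 18.5 ± 2.91 FPKM), the carrier of CMP-sialic acid, overlapped. The phosphate and vesicular anion class held 3 members, all overlapping and within 1.5-fold: Slc20a1 and Slc20a2, which import phosphate, and Slc17a5, which exports sialic acid from lysosomes. The summed levels overlapped for the amino acid and peptide class (102 to 111 FPKM in WT and 98.8 to 111 FPKM in KO oocytes) and for the nucleotide sugar class (58.9 to 76.9 and 61.0 to 73.4 FPKM).

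**Figure D5:**
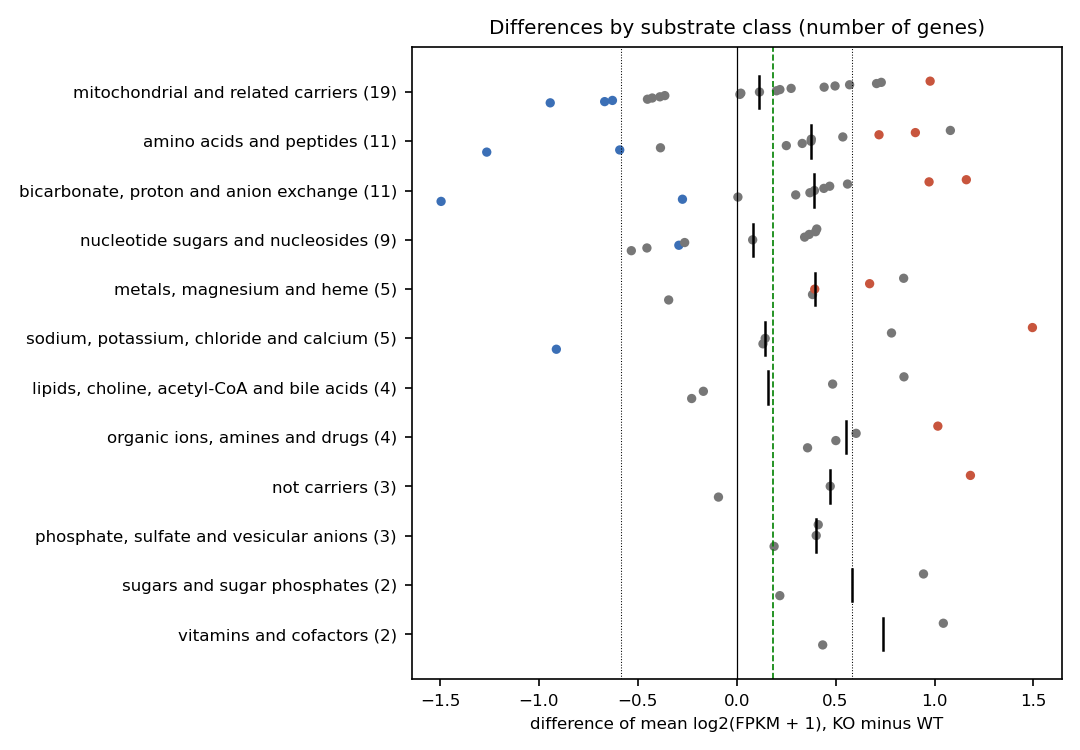
KO minus WT difference in mean log2(FPKM + 1) for each member by substrate class, with the number of members in brackets. Points are genes (red, every KO oocyte above every WT oocyte; blue, every KO oocyte below; grey, overlap), black bars are class medians, the green dashed line is the median of all genes tested at 0.18 and dotted lines mark 1.5-fold.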

How the data were processed

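Single mature oocytes were profiled by RNA sequencing of amplified cDNA, per the labels' protocols. The deposited table holds FPKM values that the authors computed, 1 per Ensembl gene and oocyte and not logged. The submitters' processing notes list, without roles, the mm9 build and the tools edgeR 3.1.10, HTSeq, TopHat2 2.0.2, TopHat, Bowtie 0.12.8 and Bowtie2. Gene symbols came from a GRCm38 annotation, which named 32897 of 37620 identifiers (87.4%). Its transcripts gave the share of each gene's 50-base words found in other genes. That share was over 10% for 8 members, among them Slc45a3 (12.0%), Slc33a1 (30.7%), Slc9a4 (18.4%) and Slc35a4 (15.2%), whose reads are less certain. Spike-in values were not used here, so levels are relative to the other RNA of the same oocyte.

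The members and lists were chosen with earlier results of these data known. Oocytes were grouped by the labels' genotype. Differences are of mean log2(FPKM + 1), with a pseudocount of 1, and a call is a difference over 1.5-fold. No test of genotype was made, because each library is 1 oocyte and no animal is named. Median-ratio scaling, quantile normalization, centring, other pseudocounts and filters and leaving out each oocyte were the alternatives. Read counts were recovered from the steps between FPKM values (within 0.01 of whole) for 18300 of 18300 genes with a value, of which 2437 were seen in 1 library. The method gives these 2437 genes 1 read each by construction, so their recovery could not fail. On simulated data for 2513 genes with reads in more than 1 library, 96.1% came out exact. Every member had at least 492 reads over the 7 libraries. Poisson intervals cover counting error only, since amplified reads without molecular identifiers are not independent molecules.

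Named genes were the 12 highest members, up to 12 per direction with the largest difference among those without overlap, in each class of at least 3 members the 2 highest and the 1 with the largest difference, members with a textbook role in oocytes, and the 3 genes on each side of the limit. Other genes with values in the text (such as Slc7a14, Slc24a3, Slc25a26, Slc25a38, Slc23a3, Slc31a1, Slc33a1 and the cofactor carriers) were chosen for their role or call after their values were seen. Substrate classes follow the family number, so single genes may carry something else. Python 3.11.15, numpy 2.4.6, pandas 2.3.3, scipy 1.17.1 and matplotlib 3.10.9 were used. Single values of a few members are not reported here, though counts and medians over members include them.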

Additional observations from a re-analysis of the deposited data

Results flagged for a closer look

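In 79 groups of 4 KO oocytes, 1 for each member and 1 for the share of reads in members, the highest or lowest oocyte was compared with the others by Dixon's criterion, which chance meets in about 1 of 20 groups. It was met for 3 genes. Slc23a2, the ascorbate transporter gene, was at 27.3 FPKM in KO3, below the 32.6 to 33.1 FPKM of the other KO oocytes. Slc35b3, the carrier of PAPS, was at 15.0 FPKM in KO1, below the 24.9 to 26.4 FPKM of the other KO oocytes. Slc24a3, the sodium-calcium exchanger gene, was at 2.15 FPKM in KO3, below the 2.76 to 2.87 FPKM of the others. All 3 genes overlapped between genotypes.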

How the results depend on the processing

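Against 18 members higher, 7 lower, 10 above and 9 below without overlap and a median of 0.37, median-ratio scaling gave 11 lower, 6 above (14.5% and 12.3% of all genes) and a median of 0.17. Quantile normalization gave 14 lower, 6 above (12.9% and 12.3%) and 0.14, and centring on the median of all genes 11 lower (13.6%) and 0.19. A pseudocount of 5 gave 5 higher (8.22% of all genes) and a median of 0.16. Of the 23 members with a mean of at least 10 FPKM, 3 were higher, 4 lower, 1 above and 4 below, with a median of 0.22. Of all genes at that level, 16.3% were higher, 9.63% lower, 15.8% above and 14.4% below. Without a filter, 25 of 239 genes were above (11.9% of all genes) and the median was 0.085. Leaving out each oocyte in turn gave 17 to 29 higher (29 without WT1) and 5 to 9 lower. It gave 11 to 26 above (26 without WT1, 18 without KO1 or KO3), 9 to 13 below and medians of 0.22 (without WT2) to 0.42. Of all genes, 19.7% to 28.5% were then higher, 7.78% to 9.33% lower, 20.3% to 32.5% above and 10.3% to 13.5% below. The cause was not tested, other than that a larger pseudocount shrinks the differences of low genes by its construction. Among 75 such values 53 stayed alike and 22 moved. Alike meant counts within 1.5-fold of each other, or a median shift under the pooled SD between oocytes of a genotype. Of 25 members past 1.5-fold, 0 changed sign, 16 came inside 1.5-fold under at least 1 alternative and 9 did not (among them Slc7a14, Slc12a2, Slc22a3, Slc25a16, Slc25a31, Slc45a3, Slc4a10 and Slc6a15). With a pseudocount of 5, Slc22a3 (0.5852) and Slc4a10 (-0.5890) were only just past the limit of 0.58496. Small differences within 1.5-fold did change sign, such as Slc25a15, which turned to -0.02 with median-ratio scaling, and Slc44a2, which turned to 0.03 without WT1. No paired analysis was possible because the comparison comes from no test and the labels tie no oocyte of one genotype to one of the other. Depth limits the lowest members most: WT2 had under 10 reads for 2 members and WT4 for 1.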
